A study of Mus musculus with 2 samples.

Results

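The genes examined were 10 genes of Toll-like receptor sensing in mouse colon cells, namely the receptors Tlr1, Tlr2, Tlr3, Tlr4, Tlr7, Tlr9 and Tlr13, the co-receptors Cd14 and Ly96, and the adaptor Myd88. They were chosen by symbol from the 31053 features listed for each library, and all 10 were found in both. The material was colon lamina propria cells that the labels describe as cd11b+, profiled by droplet single-cell RNA sequencing with unique molecular identifiers (UMIs), so that each count is 1 captured transcript. The WT library came from wild-type mice, and the KO library from mice in which CRISPR-Cas9 removed a long non-coding RNA gene on the C57BL/6J background, labelled LncRNA17Rik and called lncLy6c by the study. Per the study the libraries came from pooled 8-week-old male mice (n = 6, not said to be per genotype or in all), so there was 1 library per genotype and no test between genotypes was possible. No feature carries the name LncRNA17Rik, and the deletion was not checked here.

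Toll-like receptors recognise conserved microbial structures and start inflammatory gene expression. Tlr2, which pairs with Tlr1, and Tlr4 act at the cell surface on bacterial lipoproteins and lipopolysaccharide, and Cd14 and Ly96 (MD-2) deliver and hold lipopolysaccharide for Tlr4. Tlr3, Tlr7, Tlr9 and Tlr13 act in endosomes on double-stranded RNA, single-stranded RNA, unmethylated DNA and bacterial ribosomal RNA. Myd88 carries the signal of all of these receptors except Tlr3 to the NF-kB and interferon regulatory factors. In the gut, macrophages live beside dense bacterial communities, and resident macrophages are known for a muted response to these ligands.

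After filtering, 2597 WT and 2514 KO cells remained, with median depths of 5073 and 6564.5 UMIs per cell, and the libraries shared 0 cell barcodes. The cells formed 22 clusters, of which 1, shallow in depth, stayed unnamed. Macrophages and monocytes fell into 5 clusters, of which 3 were mostly of a single library. Resident macrophage-like cells (166 WT, 124 KO) were 1 cluster led by Mmp13 and C1qc, and inflammatory monocyte-like cells (79 WT, 336 KO) were a cluster led by Chil3 and Ace (47 WT, 294 KO) and another led by Arg1 and Rsad2 (32 WT, 42 KO). Intermediate cells, with macrophage and monocyte markers level, were a cluster led by Ly6i and Cxcl9 (633 WT, 42 KO) and another led by Retnla and Ccl24 (20 WT, 153 KO), and were not compared between genotypes on their own. The bounds of these classes depend on the clustering, since WT resident macrophage-like cells numbered 831 at the lower resolution and WT inflammatory monocyte-like cells 662 with 4000 variable genes. Itgam, the gene of the labelled surface protein, was detected in 60.9% of WT and 74.8% of KO pooled macrophage and monocyte cells and in 14.0% and 7.27% of T cell-like cells, so both libraries also held cells in which its RNA was mostly absent.

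Levels are UMIs per 1000000 UMIs of the class (CPM) with exact Poisson 95% intervals, shares are percentages of cells with at least 1 UMI, and ratios of KO to WT are on the log2 scale with exact 95% intervals. All these intervals cover counting error only. T cell-like cells (242 WT, 110 KO), which should lack the myeloid receptors, served as the background. Because reads were counted at the 3' end of transcripts, levels are compared between cell classes for each gene and not between genes. Positions are from GENCODE M21 on GRCm38.

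**Figure D1:**
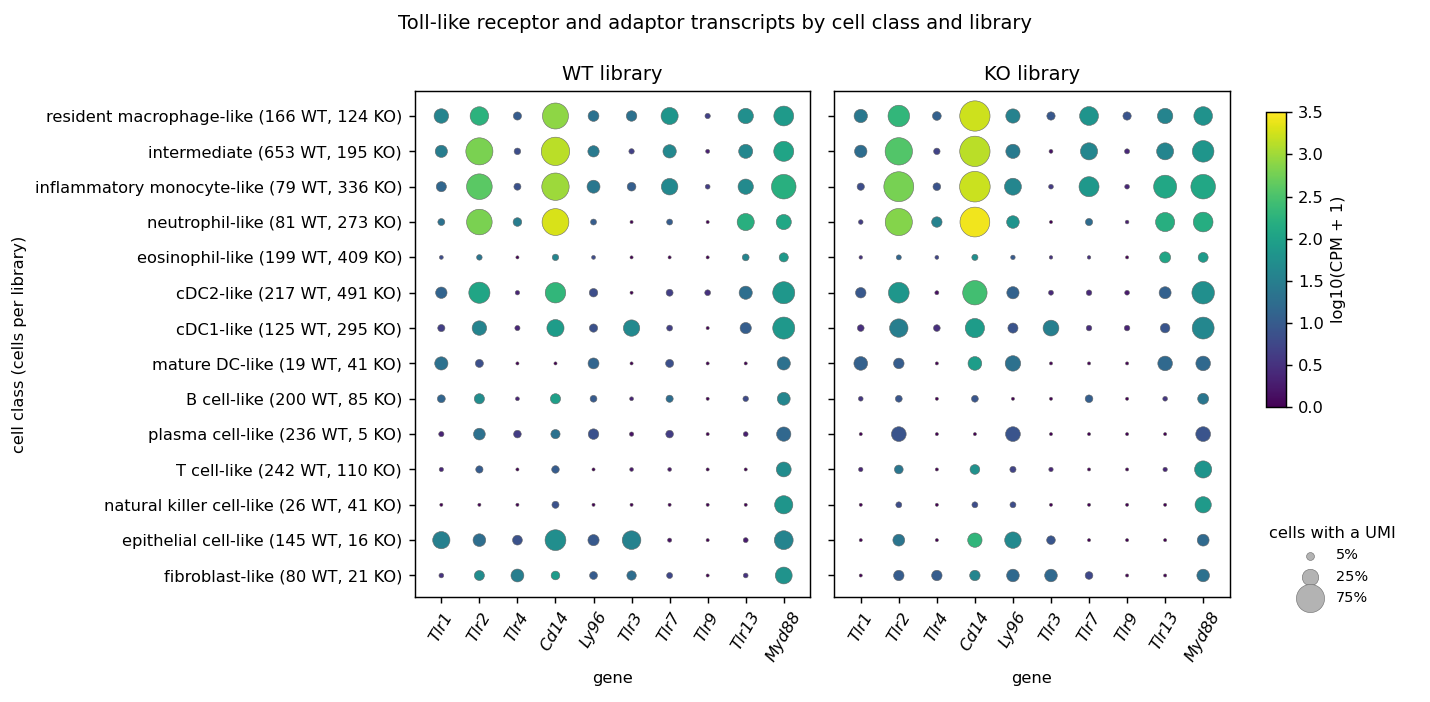
Level (colour, log10 of CPM + 1) and share of cells with a UMI (point area) of the 10 genes in each cell class (rows) of the WT and KO libraries. Colours are to be read down each column: Cd14 and Tlr2 peak in neutrophil-like, monocyte-like and macrophage-like cells, Tlr3 in cDC1-like and WT epithelial cell-like cells, and Myd88 is spread over nearly every class.

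Start-site windows from RefSeq (GRCm38.p6, 250 bases before to 50 after the start) were matched for Tlr1, Tlr2, Tlr3, Tlr9, Tlr13 and Myd88. They were searched on both strands for the NF-kB letters GGG, any 3 bases, TTCC, for the letters GAGGAAGT bound by PU.1, a myeloid transcription factor, and for the interferon-stimulated response element letters GAAA, any 2 bases, GAAA. Of 32851 windows, 5.56%, 3.2% and 3.44% held them. The 30 bases around each match are shown to give the letters each gene holds near its start, with the motif in capitals and the sequence in the direction of the gene.
Tlr2, NF-kB, chr3:83841762-83841791, minus strand: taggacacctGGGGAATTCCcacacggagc
Tlr3, NF-kB, chr8:45410572-45410601, minus strand: agttgtttctGGGAGTTTCCtgcttttgag
Tlr1, PU.1, chr5:64933563-64933592, minus strand: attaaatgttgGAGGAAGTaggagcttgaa
Tlr9, PU.1 on the opposite strand, chr9:106222597-106222626, plus strand: gtgaaagtgtcACTTCCTCaattctctgag
Myd88, interferon-stimulated response element, chr9:119340039-119340068, minus strand: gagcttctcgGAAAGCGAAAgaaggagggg
No window held more than 1 match, and a further Tlr1 window and the Tlr13 window held none. Each stretch shown overlaps an exon of its own gene in GENCODE M21, and the Tlr3 stretch also an exon of the antisense gene Gm45542. For Tlr1 and Tlr2 only the end of the stretch does so, and the letters in capitals lie before the start of the gene in GENCODE M21. A match describes letters and not the binding of a factor.

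Tlr2 (chr3:83836272-83841767, minus strand) was highest in neutrophil-like, intermediate and monocyte-like cells. In the WT library it measured 615 CPM (513 to 730) in neutrophil-like, 614 (589 to 640) in intermediate, 401 (352 to 455) in inflammatory monocyte-like and 178 (154 to 205) in resident macrophage-like cells. In the KO library the same classes measured 703, 350, 602 and 200 CPM. As classes, resident macrophage-like cells therefore stood below the other macrophage, monocyte and neutrophil cells in both libraries. Inflammatory monocyte-like cells exceeded them 2.25-fold in WT (log2 1.17, interval 0.89 to 1.45) and 3.02-fold in KO (log2 1.59, 1.38 to 1.81). In WT this came from the Chil3 and Ace cluster (650.2 CPM), since the Arg1 and Rsad2 cluster held 154.8. Among dendritic cells, cDC2-like cells held 112 CPM in WT and 67.8 in KO, against 37.1 and 29.9 in cDC1-like cells, the conventional dendritic cells known for cross-presentation. T cell-like cells held 8.98 and 23.0 CPM. Of all Tlr2 UMIs, 80.3% in WT and 66.1% in KO lay in pooled macrophage and monocyte cells. After each cell was thinned to 1000 UMIs, 32.9% of pooled macrophage and monocyte cells in WT and 33.5% in KO had a Tlr2 UMI, against 1.24% and 2.75% of T cell-like cells. Unthinned shares were 61.8% and 72.8% at median depths of 5358.5 and 9121 UMIs, and 4.13% and 6.36% in T cell-like cells at 4968.5 and 5873.5 UMIs.

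Tlr1 (chr5:64924679-64933563, minus strand), the partner of Tlr2, had a different distribution, with its highest level in resident macrophage-like cells of both libraries. It measured 37.1 CPM (26.5 to 50.5) there in WT and 24.0 (15.4 to 35.7) in KO, which was 2.80-fold (log2 1.48, 0.37 to 2.79) and 4.39-fold (log2 2.14, 1.16 to 3.15) above inflammatory monocyte-like cells. WT epithelial cell-like cells came next with 31.4 CPM, on 72 UMIs and 25.5% of the WT total of the gene, and their interval overlapped that of resident macrophage-like cells. KO epithelial cell-like cells numbered 16 and held 0 Tlr1 UMIs, which allows up to 21.9 CPM. Intermediate cells, also high in Tlr2, held 28.5 CPM of Tlr1 in WT, 36.5% of the WT total of the gene, and 16.5 CPM in KO. In KO, resident macrophage-like cells did not exceed them beyond counting error (log2 0.54, -0.28 to 1.34). In neutrophil-like cells, where Tlr2 was high, Tlr1 rested on 4 WT and 3 KO UMIs. T cell-like cells held 2 WT UMIs and 1 KO UMI.

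Tlr4 (chr4:66827584-66930284, plus strand), the lipopolysaccharide receptor, was sparse, with 88 UMIs in each library. Its level in neutrophil-like cells was 28.6 CPM (10.5 to 62.2) in WT and 33.6 (23.0 to 47.5) in KO, which was 4.32-fold (log2 2.11, 0.57 to 3.38) and 5.12-fold (log2 2.36, 1.64 to 3.07) above pooled macrophage and monocyte cells. Those cells held 6.61 CPM in WT and 6.57 in KO. WT fibroblast-like cells, at 29.9 CPM on 13 UMIs, did not differ from WT neutrophil-like cells beyond counting error. No Tlr4 UMI was seen in T cell-like cells, which allows up to 2.07 CPM in WT and 4.06 in KO.

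Cd14 was detected in most cells of every macrophage and monocyte class and of the neutrophil-like class. Neutrophil-like cells had the highest level, 1963 CPM (1778 to 2162) in WT and 2683 (2580 to 2789) in KO. WT inflammatory monocyte-like cells held 960 CPM and resident macrophage-like cells 807, whereas in KO these classes held 1666 and 1685 and did not differ beyond counting error. The order of the macrophage and monocyte classes for Cd14 therefore differed between the libraries. In dendritic cells the level was lower, with cDC2-like cells above cDC1-like cells 2.46-fold in WT (log2 1.30, 1.00 to 1.60) and 3.33-fold in KO (log2 1.74, 1.58 to 1.89). The cDC2-like class held 201 CPM in WT and 275 in KO, but its cluster led by Plet1 and Tbc1d4 held 181 and 158. Its other cluster, led by Mgl2 and Ccl17, had 3 WT and 118 KO cells. A Cd14 UMI was found in 52.1% of WT and 64.7% of KO pooled macrophage and monocyte cells at 1000 UMIs per cell, against 1.24% and 0.917% of T cell-like cells. The unthinned shares were 73.3% and 87.9% against 4.55% and 8.18%.

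Ly96 (chr1:16688051-16709611, plus strand), which makes the lipopolysaccharide-binding partner of Tlr4, was a low-count gene, with 210 WT and 408 KO UMIs. In pooled macrophage and monocyte cells it measured 24.0 CPM (20.0 to 28.6) in WT and 33.8 (29.3 to 38.9) in KO. This was 3.81-fold and 4.78-fold above cDC1-like cells (log2 1.93, 0.96 to 3.09, and 2.26, 1.74 to 2.81). Neutrophil-like cells held 2 UMIs in WT and 58 in KO, so that only the KO library placed Ly96 highest there, at 61.0 CPM. T cell-like cells held 0 WT and 3 KO UMIs.

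Tlr3 (chr8:45395665-45411080, minus strand), the sensor of double-stranded RNA, peaked in cDC1-like cells. It measured 43.4 CPM (33.3 to 55.6) in WT and 30.7 (26.1 to 35.9) in KO cDC1-like cells. In cDC2-like cells 0 of 217 WT cells had a Tlr3 UMI, which allows a share of up to 1.38%, and the KO level rested on 11 UMIs. The cDC1-like level was at least 33.4-fold above cDC2-like cells in WT, counted against 3 UMIs for the class, and 20.5-fold above them in KO (log2 4.36, 3.48 to 5.39). Within the cDC1-like class, the cluster led by Xcr1 and the cluster led by the cell-division genes Pclaf and Top2a held 41.4 and 47.3 CPM in WT and 26.4 and 35.0 in KO. Tlr3 was thus present in both clusters of the class. WT epithelial cell-like cells held 33.6 CPM on 77 UMIs and did not differ from WT cDC1-like cells beyond counting error. As a class, resident macrophage-like cells followed with 18.5 CPM in WT and 7.99 in KO, on 20 and 8 UMIs. Below the class level, the Arg1 and Rsad2 monocyte cluster held 19.8 CPM in WT and 26.9 in KO, on only 6 and 9 UMIs. In that cluster 4 cDC1 markers were also raised, and their part was not tested. The Chil3 and Ace cluster and neutrophil-like cells held 0 UMIs in both libraries. An exon of Tlr3 overlaps the antisense gene Gm45542, and whether the counting used strand was not given in the sources used here.

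Tlr7 (chrX:167304929-167330558, minus strand), the sensor of single-stranded RNA, was concentrated in macrophages and monocytes, which held 83.4% of its WT and 89.4% of its KO UMIs. Resident macrophage-like cells measured 64.9 CPM (50.6 to 82.0) in WT and 62.9 (48.3 to 80.5) in KO. Inflammatory monocyte-like cells measured 41.4 (26.8 to 61.2) and 71.9 (62.5 to 82.3). In neither library did these classes differ beyond counting error. Pooled macrophage and monocyte cells exceeded cDC2-like cells 13.5-fold in WT (log2 3.75, 2.75 to 4.98) and 39.7-fold in KO (log2 5.31, 4.46 to 6.33). Neutrophil-like cells held 2 WT and 15 KO UMIs, so that Tlr7 did not share the neutrophil level of the surface receptor Tlr2.

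Tlr13 (chrX:106143204-106160493, plus strand), the sensor of bacterial ribosomal RNA, was highest in neutrophil-like cells, with 162 CPM (112 to 226) in WT and 158 (133 to 185) in KO. Its level in resident macrophage-like cells was 51.9 (39.2 to 67.4) and 36.9 (26.0 to 50.9) CPM, 3.12-fold and 4.27-fold lower. KO inflammatory monocyte-like cells and KO eosinophil-like cells held 121 and 113 CPM and did not differ beyond counting error, whereas in WT these classes held 44.7 and 37.8. Eosinophil-like cells were the shallowest named class, with median depths of 755 UMIs in WT and 971 in KO, and their WT level rested on 7 UMIs. Dendritic cells held less, with 16.9 and 10.7 CPM in cDC2-like and 9.80 and 7.28 in cDC1-like cells, and T cell-like cells held 0 WT UMIs and 1 KO UMI.

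Tlr9 (chr9:106222598-106226883, plus strand), the DNA sensor, was close to the limit of detection with 16 WT and 27 KO UMIs. Of these, 10 WT and 14 KO UMIs lay in pooled macrophage and monocyte cells, at 1.89 CPM (0.906 to 3.48) and 2.36 (1.29 to 3.95). No UMI was found in 200 WT and 85 KO B cell-like cells, which allows up to 3.77 and 7.62 CPM. No cluster met the marker rule for plasmacytoid dendritic cells, a cell type known for high Tlr9 and Tlr7. Between neighbours in its order of classes, a difference was detectable only in KO for resident macrophage-like over intermediate cells, on 7 and 3 UMIs (log2 2.22, 0.09 to 4.81).

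Myd88 (chr9:119335934-119341411, minus strand) was detected in every class. Its highest levels were 159 CPM (129 to 194) in WT inflammatory monocyte-like and 147 (124 to 174) in KO neutrophil-like cells. Myd88 was well above 0 in T cell-like cells, at 47.7 CPM (37.1 to 60.3) in WT and 63.6 (46.7 to 84.6) in KO, and in natural killer cell-like cells, at 66.4 and 76.2. Pooled macrophage and monocyte cells exceeded T cell-like cells only 2.26-fold in WT (log2 1.18, 0.82 to 1.56) and 1.43-fold in KO (log2 0.51, 0.08 to 0.98). The lowest WT level among classes of at least 50 cells was 13.6 CPM in plasma cell-like cells. Exons of Myd88 and of the antisense gene Acaa1a overlap.

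**Figure D2:**
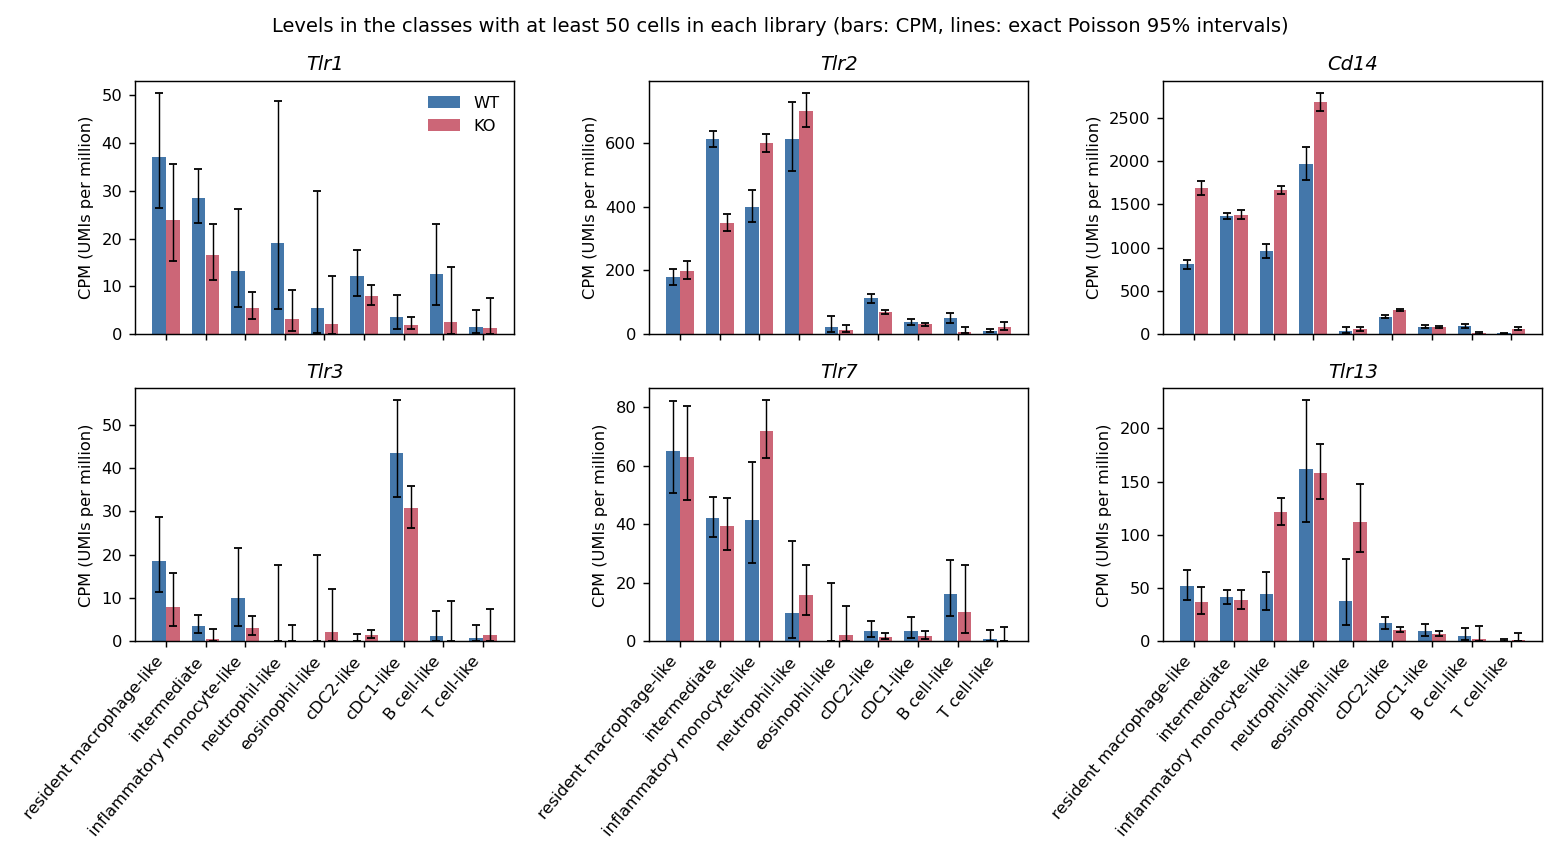
Levels (bars, CPM on axes from 0) of 6 of the genes in the 9 classes for which WT and KO each gave 50 or more cells, WT in blue and KO in red, with exact Poisson 95% intervals as lines. Tlr2, Cd14 and Tlr13 share a high level in neutrophil-like cells, Tlr1 and Tlr7 are highest in macrophage or monocyte classes, and Tlr3 is highest in cDC1-like cells.

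The likeness of the genes to others was described by Pearson's r of log2(CPM + 10) over 18 points, the same 9 classes in WT and in KO, among 6901 genes. These points share libraries and depth, so the values are descriptive. Tlr4 and Tlr9, under 200 UMIs, were left out, and each of the remaining 8 genes was ranked against genes other than the 10. Those most like Tlr2 were Casp4 (r = 0.97), Slc15a3 (0.95) and Prdx5 (0.95), and those most like Cd14 were Slc15a3 (0.96), Casp4 (0.96) and Nlrp3 (0.96). Casp4 makes an inflammatory caspase that binds lipopolysaccharide in the cytosol, and Nlrp3 an inflammasome sensor. Among the pairs of the 8 genes themselves, Tlr2 and Cd14 were the most alike (r = 0.969), above the nearest outside gene of either, followed by Cd14 and Ly96 (0.895). For Tlr1 the nearest genes were Scamp1 (0.92), the complement gene C1qb (0.91) and Lgmn (0.90), and for Tlr7 they were the scavenger receptor gene Msr1 (0.94), Clcn7 (0.93) and Atp6v1b2 (0.91), the last 2 of which act in lysosomes. Tlr13 was nearest to Lst1 (0.95), Mapkapk2 (0.95) and Mcl1 (0.94), Ly96 to Lhfpl2 (0.89), Lyz2 (0.88) and Gk (0.86), and Myd88 to the interferon-induced gene Oasl2 (0.92), Fgr (0.87) and Gpr141 (0.87). Tlr3 was nearest to Txndc15 (0.81), Dpagt1 (0.81) and Xcr1 (0.78), the last a chemokine receptor gene of cDC1 cells.

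To see how the 10 genes differed between the genotypes, KO and WT were compared in pooled macrophage and monocyte cells (898 WT, 655 KO). Tlr1 and Tlr3 were lower in KO past 2-fold, and no gene was higher past 2-fold. Tlr1 had 28.5 CPM in WT and 12.3 in KO, on 151 and 73 UMIs, a log2 ratio of -1.22 (-1.64 to -0.80). Tlr3 had 7.37 and 3.03 CPM on 39 and 18 UMIs, a log2 ratio of -1.28 (-2.18 to -0.44). These were 2 of the 9 genes with at least 50 UMIs, beside 5.9% of all 8654 genes tested, of which 3.72% were lower and 2.18% higher, and Tlr9 fell under the minimum. The median log2 ratio was -0.01 over the 9 genes and -0.17 over all genes tested. Relative to the latter, the limit of 2-fold was no longer passed by Tlr1 (-0.98) or Tlr3 (-0.88) and was passed by Tlr13, higher in KO (1.01).

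The other 7 genes lay within 2-fold. Tlr13 was higher in KO, with 43.8 CPM in WT and 79.1 in KO (log2 0.85, 0.62 to 1.08). Ly96 (log2 0.50, 0.17 to 0.83), Cd14 (0.38, 0.34 to 0.43) and Tlr7 (0.35, 0.11 to 0.59) were also higher in KO beyond counting error. Myd88 was lower (-0.25, -0.42 to -0.07), as was Tlr2 (-0.16, -0.24 to -0.08), although relative to the all-gene median Myd88 stood at -0.07 and Tlr2 at 0.02. Tlr4 did not differ detectably (-0.01, -0.71 to 0.69). The endosomal receptors therefore lay on both sides, with Tlr3 lower and Tlr7 and Tlr13 higher.

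**Figure D3:**
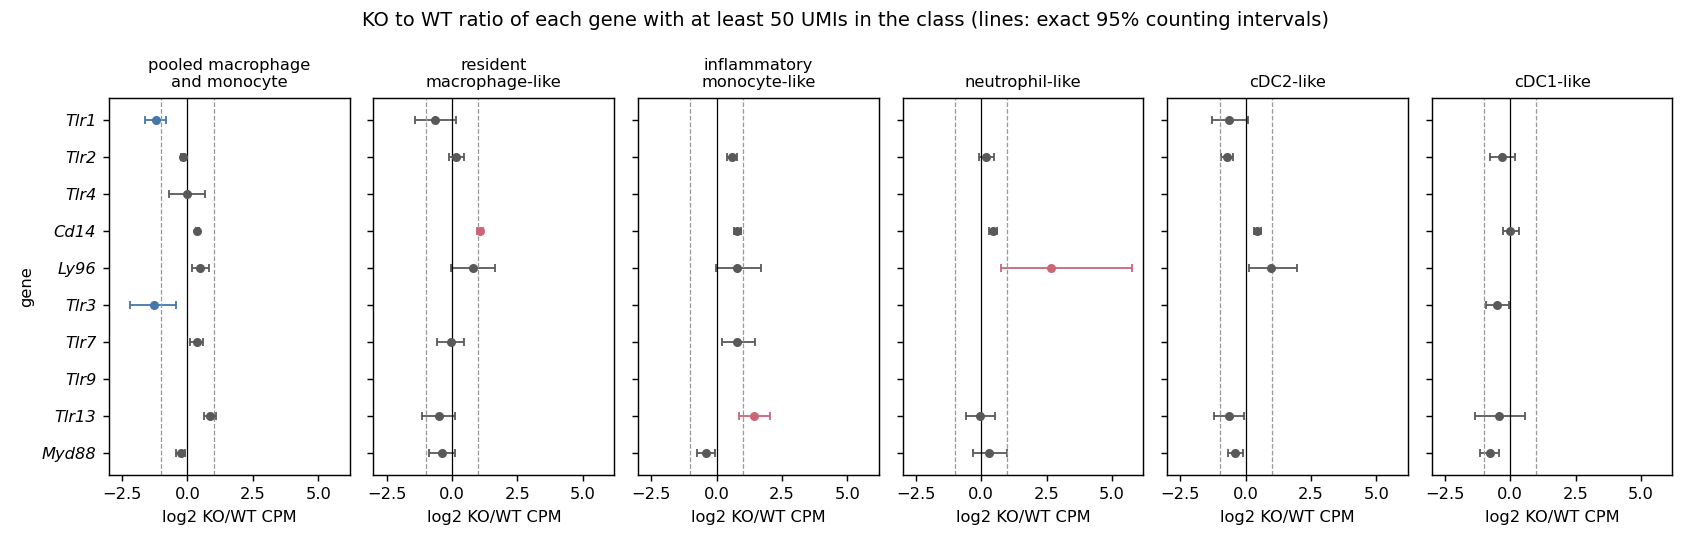
KO to WT ratios (points, log2) with exact 95% counting intervals (lines) of each gene that had at least 50 UMIs in the class, in 6 classes. Dashed lines mark 2-fold, blue points are lower and red points higher past it: Tlr1 and Tlr3 in pooled macrophage and monocyte cells, Cd14 in resident macrophage-like, Tlr13 in inflammatory monocyte-like and Ly96 in neutrophil-like cells.

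Because 3 of the 5 macrophage and monocyte clusters were mostly of a single library, the ratios were also taken within each cluster. Tlr1 was lower in KO in all 3 clusters with at least 20 of its UMIs, at log2 ratios between -1.85 and -0.52, and each of these intervals included 0. With the same cluster weights in both libraries, the Tlr1 ratio was -1.0. Myd88 was lower in KO in 5 of 5 clusters (-0.97 to -0.12), with an interval that excluded 0 only in the Ly6i and Cxcl9 cluster, and at -0.48 with the same weights. The same weights brought Tlr13 to 0.42, Ly96 and Cd14 each to 0.21, Tlr7 to 0.32, Tlr2 to -0.25, Tlr3 to -1.13 and Tlr4 to -0.62. The other genes with at least 4 such clusters were higher in some clusters and lower in others. Tlr2, for example, was lower in the Ly6i and Cxcl9 cluster (618.6 CPM in WT, 441.6 in KO) and higher in the Arg1 and Rsad2 cluster (154.8 and 269.4), and Ly96 ranged from -1.36 to 0.99. Tlr3 reached 20 UMIs only in the resident macrophage-like cluster, where its interval included 0 (-1.21, -2.61 to 0.03). In the Arg1 and Rsad2 cluster Tlr3 was higher in KO, on 6 and 9 UMIs (0.45, -1.21 to 2.22). Epithelial markers, of a class that held 25.5% of WT Tlr1 and 40.7% of WT Tlr3 UMIs, summed to 134 CPM in WT and 37.7 in KO pooled macrophage and monocyte cells with 8 of 8 markers detected in each, and their part in the Tlr1 and Tlr3 ratios was not tested.

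**Figure D4:**
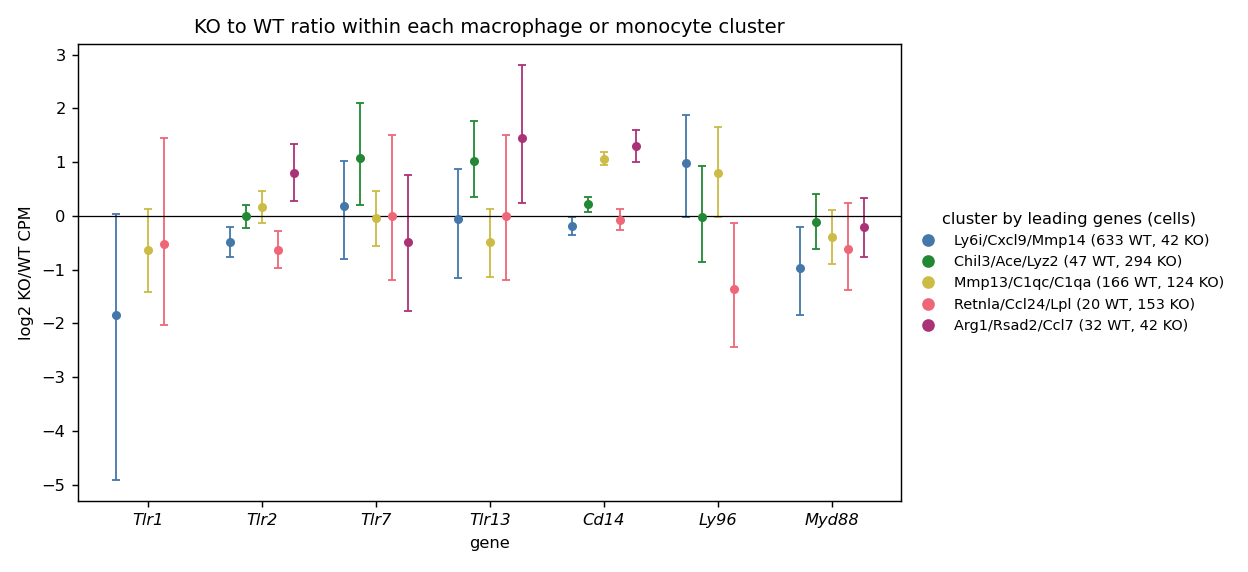
KO to WT ratios (points, log2) with exact 95% counting intervals of 7 genes within each macrophage or monocyte cluster, coloured by cluster and shown where the gene had at least 20 UMIs. Myd88 lies below 0 in all 5 clusters and Tlr1 in all 3, while Tlr2, Cd14, Ly96 and Tlr13 lie on both sides of 0.

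In resident macrophage-like cells Cd14 was higher in KO past 2-fold, with 807 CPM in WT and 1685 in KO (log2 1.06, 0.94 to 1.18). It was 1 of 7 genes with at least 50 UMIs, beside 10.8% of 4703 genes past 2-fold in either direction, 3.08% higher and 7.68% lower. At 1000 UMIs per cell 37.8% of WT and 61.5% of KO cells had a Cd14 UMI. The other genes of the class lay within 2-fold, with Tlr7 nearly level (-0.04, -0.56 to 0.47) and Tlr13 at -0.49 (-1.13 to 0.13). Inflammatory monocyte markers summed to 1071 CPM in WT and 447 in KO of this class, with 12 and 11 of 12 detected. Neutrophil markers summed to 292 and 230, with 9 and 8 of 10 detected. Ly6g was at 0, as in every non-neutrophil class in which these markers were summed. The part of these markers in the Cd14 ratio was not tested. The Cd14 ratio kept its direction in 11 of 11 alternatives but was under 2-fold with the other cell filters, clustering settings and class rules, down to 0.28 when each cell was classed by its highest marker score.

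In inflammatory monocyte-like cells Tlr13 was higher in KO past 2-fold, with 44.7 CPM on 27 UMIs in WT and 121 on 356 UMIs in KO (log2 1.44, 0.87 to 2.06). This was 1 of 6 genes with at least 50 UMIs, beside 11.3% of 5688 genes past 2-fold, 4.32% higher and 6.93% lower. It was higher in each of the 2 clusters, at 63.4 against 128 CPM in the Chil3 and Ace cluster (log2 1.01, 0.35 to 1.76) and 26.4 against 71.8 in the Arg1 and Rsad2 cluster (1.45, 0.24 to 2.81). Cd14 (0.80, 0.67 to 0.92), Tlr7 (0.80, 0.19 to 1.46) and Tlr2 (0.59, 0.39 to 0.79) were higher within 2-fold. Myd88 was lower (-0.41, -0.74 to -0.07). The Chil3 and Ace cluster held 47 of 79 WT and 294 of 336 KO cells of the class. Within it Tlr2 was level (-0.01, -0.23 to 0.21), against 0.80 in the Arg1 and Rsad2 cluster. Cd14 stood at 0.22 and 1.30 in these clusters and Tlr7 at 1.07 and -0.49. Myd88 stood at -0.12 and -0.21, with intervals that included 0 in each. Over the class, the sign of the Tlr2 ratio changed in 7 of 11 alternatives, and that of Myd88 in 1 of 11. Neutrophil markers, of a class high in Tlr13 and Cd14, summed to 116 CPM in WT and 306 in KO, with 6 and 9 of 10 detected and Ly6g at 0, and their part in these ratios was not tested.

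In neutrophil-like cells (81 WT, 273 KO) Ly96 was higher in KO, on 2 and 58 UMIs (log2 2.68, 0.76 to 5.76). This was 1 of 5 genes with at least 50 UMIs, beside 12% of 2459 genes, 5.04% higher and 6.99% lower. Cd14 was higher within 2-fold (0.45, 0.30 to 0.60), and Tlr2 (0.19, -0.08 to 0.48), Tlr13 (-0.04, -0.58 to 0.54) and Myd88 (0.31, -0.32 to 0.98) did not differ beyond counting error. Summed neutrophil markers were also higher in KO, at 45833 and 76276 CPM, with 10 of 10 detected in each, and resident macrophage markers lower, at 1253 and 507. Their part in the Ly96 ratio was not tested.

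In dendritic cells no gene passed 2-fold, among 5 with at least 50 UMIs in cDC1-like and 6 in cDC2-like cells, beside 3.54% of 7740 genes (1.82% higher, 1.72% lower) and 7.69% of 7917 (2.73% higher, 4.96% lower). Myd88 was lower in KO in each, from 71.4 to 41.3 CPM in cDC1-like (-0.79, -1.14 to -0.43) and from 69.2 to 52.7 in cDC2-like cells (-0.39, -0.66 to -0.12). Tlr3 was lower in cDC1-like cells (-0.50, -0.93 to -0.05), and in the Xcr1 cluster alone the ratio was -0.65 (-1.24 to -0.04), but with every deposited barcode it was 0.07. In cDC2-like cells Tlr2 was lower (-0.72, -0.94 to -0.50) and Ly96 higher, on 13 and 82 UMIs (0.99, 0.13 to 1.96). The sign of the Tlr2 ratio changed in 2 of 11 alternatives, to 0.35 when the 10 genes were allowed in clustering. A cDC2-like cluster led by Mgl2 and Ccl17 held 3 WT and 118 KO cells, so the class was also read without it. In the remaining cluster of 214 WT and 373 KO cells, Tlr2 was lower (-1.07, -1.32 to -0.81) and Ly96 higher, on 12 and 65 UMIs (1.14, 0.24 to 2.17). Cd14, higher over the class (0.45, 0.30 to 0.60), was lower there (-0.19, -0.36 to -0.02). Tlr13 (-0.87, -1.50 to -0.22) and Myd88 (-0.39, -0.68 to -0.10) were also lower there. The share of all genes past 2-fold was not counted for this cluster alone. Inflammatory monocyte markers, of a class high in Tlr2, summed to 1934 CPM in WT and 679 in KO cDC2-like cells, with 12 of 12 detected in each, and to 1686 and 724 in cDC1-like cells, with 10 and 12 detected, and their part was not tested.

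In eosinophil-like cells Tlr13 was higher in KO, with 7 UMIs in 199 WT and 52 in 409 KO cells (log2 1.58, 0.43 to 2.96), 1 of 2 genes with at least 50 UMIs beside 8.46% of 2057 genes, 5.44% higher and 3.01% lower. The name of this class rested on 3 of 8 markers, and 3 neutrophil markers, of a class high in Tlr13, were also raised. Clustered alone, the WT library gave 0 eosinophil-like cells. The part of neutrophil transcripts in this ratio was not tested. In lymphocytes Cd14 moved in opposite directions, at 90.4 CPM in WT and 7.62 in KO B cell-like cells (-3.57, -5.88 to -1.96) and at 8.98 and 56.8 in T cell-like cells (2.66, 1.74 to 3.68), beside 7.52% of 3390 genes (0.826% higher, 6.7% lower) and 13% of 5082 (2.95% higher, 10.1% lower). These levels came from few cells, and each direction turned in 1 of 11 alternatives, to 0.10 for B cell-like cells classed by marker score and to -0.018 for T cell-like cells without the top 3% of doublet scores. In KO T cell-like cells 3 cells held 83.3% of the 42 Cd14 UMIs, and in WT B cell-like cells 3 cells held 65.3% of 72. Neutrophil markers moved the same way, from 961 to 27.9 CPM in B cell-like and from 44.9 to 242 CPM in T cell-like cells, with 8 and 6, then 7 and 9, of 10 detected and Ly6g at 0, and their part was not tested.

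Over all cells, Tlr1 was lower in KO past 2-fold, with 14.8 CPM in WT and 6.90 in KO (log2 -1.11, -1.40 to -0.82), 1 of 9 genes beside 16.3% of 12405, 2.94% higher and 13.4% lower. Tlr13 was higher at 17.8 and 35.9 CPM (1.01, 0.83 to 1.20) but, with the prior of 1 CPM used for the limit, stayed within 2-fold. Cd14 (0.68) and Ly96 (0.72) were higher, and Tlr2 (0.06), Tlr3 (-0.22), Tlr4 (-0.23) and Myd88 (0.05) nearly level. Relative to the median of all genes (-0.24), Tlr1 (-0.77) lay within 2-fold and Tlr13 (1.21) was higher past it. These values carry the difference in cell makeup between the libraries, in which WT held 145 epithelial cell-like cells and KO 16.

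Of 46 other genes of the pathway, 39 had at least 50 UMIs in pooled macrophage and monocyte cells, and 1 was higher and 1 lower in KO past 2-fold. Of all 8654 genes tested there, 5.9% were past 2-fold, 2.18% higher and 3.72% lower. Cd36, a scavenger receptor that assists Tlr2, was higher, with 50.5 CPM in WT and 149 in KO (log2 1.57, 1.37 to 1.77). Tlr12, a sensor of the parasite protein profilin, was lower, with 45.2 and 14.8 CPM (-1.61, -1.98 to -1.25). The remaining 37 genes, the kinases, ubiquitin ligases, transcription factors and inhibitors among them, lay within 2-fold, and the median over the 39 was -0.16 against -0.17 over all genes. In resident macrophage-like cells 2 of 29 pathway genes were higher and 3 lower, beside 3.08% higher and 7.68% lower among all 4703 genes. These 5 pathway genes, named after their values were seen, were Cd36 (1.16) and the ubiquitin ligase gene Peli1 (1.19), both higher, and the kinase genes Irak4 (-2.03) and Chuk (-1.29) and the interferon regulatory factor gene Irf7 (-3.08), all lower. Irf7 was also lower past 2-fold in inflammatory monocyte-like (-1.27), cDC1-like (-2.22) and cDC2-like cells (-2.70), but within 2-fold in pooled macrophage and monocyte cells (-0.88) and level in neutrophil-like cells (0.04). Past 2-fold in monocyte-like cells were 3 of 34 pathway genes (2 higher), beside 11.3% of all genes. In cDC1-like cells they were 1 of 34 (0 higher) beside 3.54%, and in cDC2-like cells 3 of 36 (1 higher) beside 7.69%.

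Within pooled macrophage and monocyte cells, Cd14 was found more often beside Tlr2. Of cells with a Tlr2 UMI, 86.1% in WT and 93.9% in KO also had a Cd14 UMI, against 52.5% and 71.9% of cells without one. The median depth was 6458 and 9878 UMIs in cells with Tlr2 and 3104 and 5397.5 in those without. In neutrophil-like cells the depths were closer, at 2306.5 and 2227 UMIs in WT and 3083 and 2788 in KO, and the shares were 76.0% against 54.8% in WT and 86.8% against 78.3% in KO. The part of depth in these shares was not tested.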

How the data were processed

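The authors deposited unnormalised UMI counts for every gene and barcode of 1 WT and 1 KO library of 10x Genomics 3' sequencing. The submitters' processing notes name Seurat 4 and the mm10 genome, and the file headers give software version 3.0.2. The study's limits were applied (200 to 6000 detected genes, at most 15% mitochondrial UMIs), which removed 18.5% of 3185 WT and 16.8% of 3020 KO barcodes. The WT library kept 18994564 and the KO library 22331342 UMIs. Cells of both libraries were clustered together (scanpy 1.11.5, leidenalg 0.10.2, 2000 variable genes without the genes described or their pathway, 30 principal components, 15 neighbours, Leiden resolution 1). A cluster took a name from fixed markers when at least 3 were raised 2-fold (prior of 10 CPM) in at least 10% of its cells, with equal macrophage and monocyte markers called intermediate.

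UMIs were summed per class and library. Poisson, Clopper-Pearson and conditional binomial intervals at 95% (scipy 1.17.1) cover counting error only, since cells are not replicates, and zeros were given the limit that 3 counts set. A gene counted as past 2-fold when its ratio, with a prior of 1 CPM, exceeded 2 in a class where the gene reached 50 UMIs in all and each library 50 cells. Shares were also taken after thinning each cell to 1000 UMIs, leaving out 58 WT and 31 KO shallower pooled macrophage and monocyte cells. Scrublet called 1 WT and 9 KO doublets, which is too few to have worked, so no doublets were removed. The clustering of the study was not used, and class names were rebuilt here. The text names all 10 genes, the pathway genes past 2-fold in pooled macrophage and monocyte cells and, for each of the 10 genes with at least 200 UMIs, the 3 most similar genes of at least 500 UMIs outside the 10. Peli1, Irak4, Chuk and Irf7 were named after their values were seen. The intervals were tested on counts simulated with counting error only, so the test does not cover spread between cells, mice or libraries. Of 31053 features, 31011 have an identifier in GENCODE M21, used for positions. The genes and lists were chosen with earlier results of these data known. Alternatives to the cell filter, clustering, class naming, scaling and limits were run.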

Additional observations from a re-analysis of the deposited data

Results flagged for a closer look

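The KO to WT ratios of 3 genes pointed in opposite directions in a pair of classes, with intervals that excluded 0 in each class. With 1 library per genotype the difference between the classes was not tested. The log2 ratio of Tlr2 was 0.59 in inflammatory monocyte-like and -0.72 in cDC2-like cells, a difference of 1.31, and the sign of the first value changed in 7 of 11 alternatives. The log2 ratio of Tlr13 was 1.58 in eosinophil-like and -0.65 in cDC2-like cells, a difference of 2.23. The first value rested on 7 WT UMIs in a class named on 3 of 8 markers. The log2 ratio of Cd14 was 2.66 in T cell-like and -3.57 in B cell-like cells, a difference of 6.23, and both values rested on a few cells.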

How the results depend on the processing

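The lower Tlr1 and Tlr3 and the higher Ly96, Cd14 and Tlr13 of KO pooled macrophage and monocyte cells kept their direction in 12 of 12 alternatives (Tlr1 -1.59 to -0.98). For Tlr2 the sign changed in 3 of 12. The number of the 10 genes past 2-fold was small and moved with the settings, and the cause was not tested. In pooled macrophage and monocyte cells, where it was 2, it was 1 with every deposited barcode, at Leiden resolution 0.5 or 2, with each library clustered alone, by highest marker score and after the all-gene median was subtracted (there Tlr13, higher in KO, in place of Tlr1 and Tlr3), and 0 with a prior of 10 CPM. In resident macrophage-like cells, where it was 1, it was 0 with every barcode, at resolution 0.5 or 2, with 4000 variable genes, with the genes allowed in clustering and by marker score, and 2 after the median was subtracted or with a minimum of 20 UMIs. In inflammatory monocyte-like cells, where it was 1, it was 2 under the stricter filter, at resolution 2, with 4000 variable genes, with the genes in clustering, with each library alone, by marker score and with 20 UMIs. In cDC1-like cells it was 1 with the genes in clustering, and in cDC2-like cells 1 with every barcode or after the median was subtracted and 2 with the genes in clustering or by marker score, in place of 0. In neutrophil-like cells it was 0, not 1, under the stricter filter, at resolution 2, with 4000 variable genes and with each library alone. The Ly96 log2 ratio of this class lay between 1.92 and 3.77 in 11 of 11 alternatives, with 2 WT UMIs in the main setting. Over all cells the number was 0 under the stricter filter and with a prior of 10 CPM, in place of 1. After the median was subtracted, the 1 gene past 2-fold over all cells was Tlr13, higher in KO, in place of Tlr1. The pathway count stayed within 1.5 times its value in 13 of 13 alternatives. The Cd14 ratio turned to 0.10 in B cell-like cells by marker score and to -0.018 in T cell-like cells without the top 3% of doublet scores, an alternative added after the data were seen. Depth limits Tlr9, Tlr4 and, outside cDC1-like and WT epithelial cell-like cells, Tlr3. No paired analysis was possible because each genotype had 1 library.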
